A study of Mus musculus with 6 samples.

Results

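The genes described here encode the subunits of heterotrimeric G proteins and the RGS (regulator of G protein signalling) proteins. They were chosen by symbol: every probeset annotated to a single gene whose symbol begins with Gna, Gng or Rgs and a subunit letter or number, or is Gnb1 to Gnb5. Rgs9, Rgs14 and the antisense RNA of the Gnas locus were not included, whereas Rgs7bp and Rgs9bp, the membrane anchors of the R7 class of RGS proteins, were. The choice gave 48 genes of the 18193 that had a single-gene probeset, read by 115 probesets, and no measured value entered it. Each gene was represented by its brightest probeset, the one with the highest mean signal over all arrays. After the dimmest 31% of probesets on the array had been left out, 41 of the 48 genes remained, of 13850 genes in all.

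RNA came from the whole dissected hippocampus of 3 Glud1 Tg mice and 3 wild-type (wt) mice, and each mouse was read on 1 Affymetrix Mouse Genome array. The Tg mice carry Glud1, the gene for glutamate dehydrogenase 1, under the promoter of neuron-specific enolase (Nse), so that the enzyme is over-expressed in neurons, and the study used them as a model of chronic, moderate excess release of glutamate at synapses. The wt mice were littermates of the same C57BL/6 background without the transgene, and all mice were males 9 months of age that received no treatment. The question is how the genes that carry and terminate signals from G protein-coupled receptors, among them the metabotropic glutamate receptors, compare between the Tg and the wt hippocampus.

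A heterotrimeric G protein consists of an alpha subunit, which binds guanine nucleotides, and a beta and a gamma subunit that act as a dimer. An activated receptor makes the alpha subunit exchange GDP for GTP, and the alpha subunit and the beta-gamma dimer then act separately on enzymes and ion channels. RGS proteins end the signal by speeding up the hydrolysis of GTP on the alpha subunit. In hippocampal neurons these proteins link receptors for glutamate, GABA, acetylcholine, monoamines and adenosine to adenylyl cyclases, phospholipase C and potassium channels.

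The values are MAS5 signals, linear intensities without a unit, and the trimmed mean of every array was 499.9. A signal shows how 1 probeset differs between arrays and not how 1 gene compares with another. Both probesets annotated to Glud1 were lower in the arrays labelled Tg, with 5424 ± 268 in Tg and 6009.6 ± 368 in wt at the brighter (SD, n = 3 each). The log2 fold change there was -0.15 (limma, adjusted p = 0.595). Whether these probesets read the RNA of the transgene is not given in the sources used here, so they do not check the labels, and Tg and wt below mean the arrays as labelled. The wt 1 and wt 2 arrays stood apart in 18S ribosomal RNA, with 3′ signals of 13960.1 and 10375.2, whereas the Tg arrays had 975.5 to 3312.8 and wt 3 had 2286.5. The ratio of the 3′ to the 5′ signal of Actb, a sign of RNA length, was 1.64 to 1.69 in Tg and 1.70 to 1.95 in wt arrays. Markers of some neighbouring tissue and of some hippocampal cell types also moved with the groups. In the subiculum and the cortex next to it, all 8 measured markers had negative log2 fold changes. Their signals summed to 5417 to 6384 in Tg and 7836 to 9016 in wt arrays. All 10 markers of GABAergic interneurons were negative as well (sums of 22702 to 25496 in Tg and 25669 to 31750 in wt arrays), whereas all 10 markers of dentate gyrus granule cells were positive (19127 to 21486 in Tg and 15081 to 19734 in wt arrays). CA pyramidal cell markers were positive for 7 of 8 genes, with sums of 11642 to 14121 in Tg and 11207 to 12430 in wt arrays. Astrocyte markers were negative for 6 of 7 genes, and summed to 49235 to 52130 in Tg and 55354 to 56661 in wt arrays. All Tg arrays lay below all wt arrays for 4 subiculum, 4 astrocyte and 3 interneuron markers, where the background was 8.82% of all genes. They lay above for 4 granule cell and 3 CA pyramidal markers (background 5.21%). No marker of these lists was free of overlap in the other direction. Markers of neocortical layers were positive for 2 of 8 genes, with sums of 6513 to 8232 in Tg and 6268 to 7759 in wt arrays. Thalamus markers were positive for 5 of 7 genes (3397 to 5357 in Tg and 4075 to 5723 in wt arrays). Oligodendrocyte markers were positive for 2 of 7 genes (61953 to 77004 in Tg and 64606 to 77364 in wt arrays). Of these further markers only 1, of neocortical layers, was free of overlap, above wt (background 5.21%). Tg 2 and Tg 3 stood apart in choroid plexus. All 8 of its markers had negative log2 fold changes, but their sums ran from 4799 in Tg 3 to 69641 in Tg 2, against 48932 to 55675 in wt arrays, and their mean difference from the average of the 6 arrays was 1.57 in Tg 2 and -2.24 in Tg 3 on the log2 scale. No measured marker of these lists was at 0. The lists were chosen with earlier results of these data known. The paper itself lists several of their genes, such as Tshz2, Nts and Dsp, as changed in the Tg mice. The counts are thus descriptions and no independent check. The part of these tissues and cell types in the results below was not tested. In homogenized tissue fewer cells of a type and less RNA per cell cannot be told apart.

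In the set as a whole no gene passed the test. At an adjusted p under 0.05 limma called 0 of the 41 genes, the background being 0% of 13850 genes, and 0 of all 31075 probesets. Without the adjustment 3011 probesets had p under 0.05. The Cyber-T test called 65 probesets and 0 of the 41 genes, against 0.181% of all genes. At an unadjusted p under 0.05, 3 of the 41 were higher in Tg (Gna12, Gnb2 and Gng10), where the background was 2.9%, and 3 were lower (Gng4, Gng13 and Gng11), where it was 4.97%. The smallest adjusted p in the set was 0.274, compared with 0.143 over all genes.

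The direction of the differences was more often negative than positive. The log2 fold change, Tg minus wt, was positive for 14 genes and negative for 27, and 44.1% of all genes were positive. Its median was -0.112 in the set, against -0.031 over all genes, and most differences were small, since only 4 genes differed by at least 1.3-fold and only Gng4 and Gng13 of these had an unadjusted p under 0.05. The 3 Tg arrays all lay above the 3 wt arrays for 3 genes (background 5.21%) and all below them for 7 genes (background 8.82%). With the mean of all kept probesets of a gene in place of the brightest, 22 of the 41 genes were positive and the median was 0.022, so the balance of directions depended on the probesets. These counts are descriptions, and no test of the set as a whole was made. The p values measure the spread between arrays of separate mice. The median standard error of a log2 fold change was 0.122 for these genes and 0.168 over all genes.

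**Figure D1:**
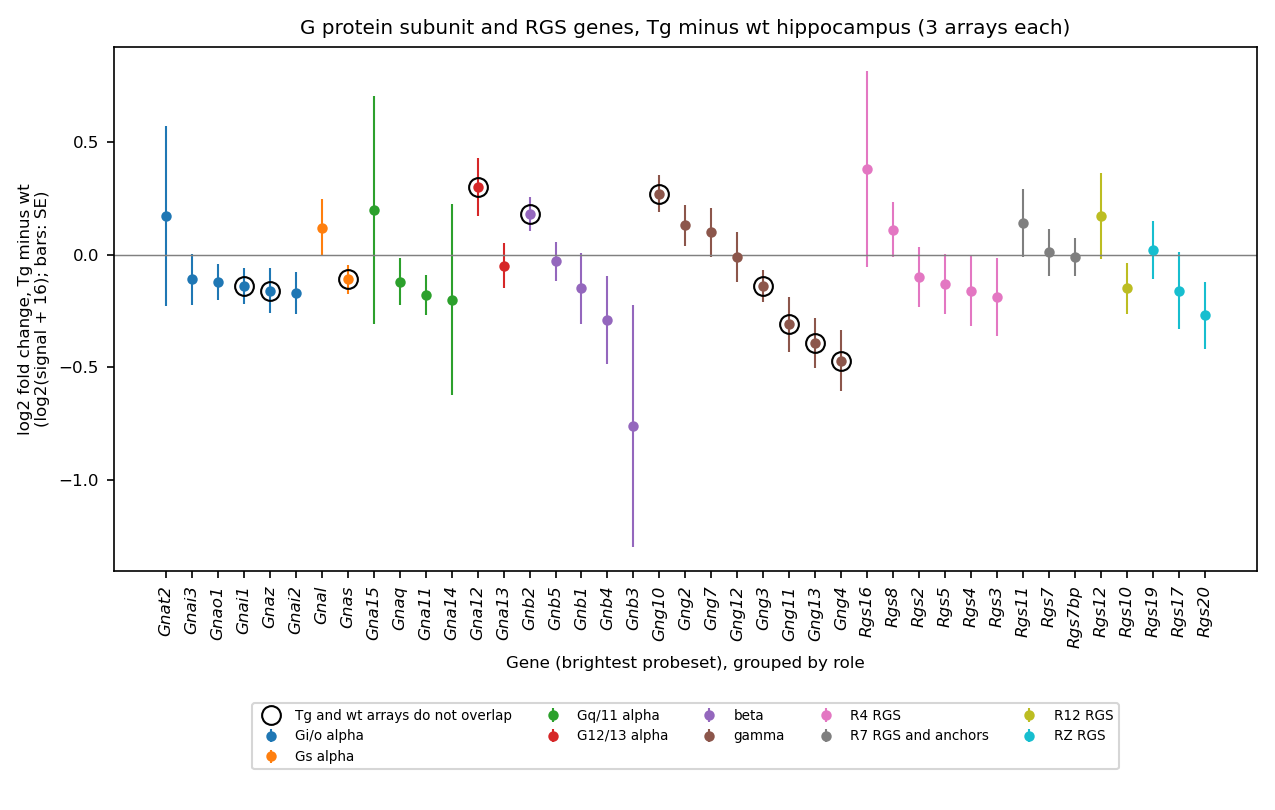
Log2 fold change, Tg minus wt, on the log2(signal + 16) scale for the 41 genes, grouped by role along the x axis and ordered by value within a role. Points are limma estimates from 3 Tg and 3 wt arrays, bars are standard errors, and rings mark the genes whose Tg and wt arrays do not overlap, 7 of them below 0 and 3 above.

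The 14 alpha subunits were split into 4 positive and 10 negative log2 fold changes, with a median of -0.114. Most of the Gi/o class inhibit adenylyl cyclase and free the beta-gamma dimers that open potassium channels. Its members were negative for 5 of 6 genes, between -0.17 and -0.11. The positive one was Gnat2 at 0.17 (SE 0.399), which was dim, at 47.1 to 100.7 on all arrays. Gnai1, an alpha subunit that inhibits adenylyl cyclase, had signals of 9427.8, 9272.5 and 8198.2 in the Tg arrays, against 9684.7, 10424.4 and 9505.1 in the wt arrays. All Tg arrays were below all wt arrays, but by little, and the log2 fold change was -0.14 (SE 0.0804, limma adjusted p = 0.608), or -0.18 to -0.08 with 1 array left out. Its second probeset gave 4101.8, 4341.7 and 4057.5 in Tg and 4500.7, 5206.7 and 4418.9 in wt arrays, again without overlap, whereas the dimmest gave a log2 fold change of 0.26.

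Gnao1 encodes Go alpha, the alpha subunit that is most abundant in brain membranes. It had 6677.7, 6460.8 and 5952.2 in Tg arrays and 7273.3, 6596.5 and 6815.4 in wt arrays, so that Tg 1 reached into the range of the wt arrays, and the log2 fold change was -0.12 (SE 0.0798, adjusted p = 0.669). Its other probesets pointed the other way, at 0.19 and 0.44, and were dimmer. Gnaz encodes Gz alpha, which inhibits adenylyl cyclase but is not a target of pertussis toxin. Gnaz had 1706.8, 1475.8 and 1650.9 in Tg and 1820.5, 1861.6 and 1730.6 in wt arrays, with no overlap, and its second probeset had 628.5, 446.2 and 540.6 in Tg and 746.4, 737.3 and 789.0 in wt arrays, also with none. The log2 fold changes of these 2 probesets were -0.16 (adjusted p = 0.63) and -0.49 (SE 0.149, adjusted p = 0.301). Gnai2 and Gnai3 were at -0.17 and -0.11 with both of their probesets negative. The second of Gnai2 was at -0.47 (SE 0.216, limma adjusted p = 0.516) with overlap, and wt 1 stood out there at 1131.0.

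The Gs class stimulates adenylyl cyclase. Gnas, its widely expressed member, had 22369.6, 23221.2 and 22773.0 in Tg arrays, against 24130.0, 25231.3 and 24526.8 in wt arrays. The groups did not overlap, and the difference was small: Tg arrays averaged 22788 ± 426 and wt arrays 24629 ± 558 (SD, n = 3 each), a log2 fold change of -0.11 (SE 0.0639, limma adjusted p = 0.607). The imprinted Gnas locus makes several transcripts, and its 3 dimmer probesets were positive, from 0.02 up to 1.33. The one at 1.33 had 69.2, 78.3 and 162.7 in Tg and 67.3, 15.9 and 18.0 in wt arrays, near the floor of the array. Gnal encodes Golf alpha, the stimulatory subunit of olfactory and striatal neurons. It had 1441.2, 1964.4 and 1962.4 in Tg arrays, of which Tg 1 was lower than every wt array, and 1654.5, 1555.6 and 1663.6 in wt arrays (log2 fold change 0.12, adjusted p = 0.784). The value was 0.27 without Tg 1 and 0.05 without Tg 2 or Tg 3. Of 8 measured striatal markers 2 were positive, their summed signals being 3654 to 4076 in Tg and 3865 to 4513 in wt arrays.

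The Gq/11 class activates phospholipase C beta and carries the signal of group I metabotropic glutamate receptors. Gna11 was measured at 3220.4, 3448.8 and 3182.5 in Tg arrays and at 3987.3, 3428.4 and 3767.8 in wt arrays, with Tg 2 just above wt 2. Its log2 fold change was -0.18 (SE 0.0886, adjusted p = 0.545), and its other probeset was at -0.10. Gnaq had 4522.1, 3758.2 and 4319.0 in Tg and 5047.3, 4663.6 and 4009.9 in wt arrays, overlapping broadly (-0.12, SE 0.104, adjusted p = 0.74), and the difference was 0.06 without wt 1 and wt 2. The 7 kept probesets of Gnaq ranged from -0.28 to 0.32, 4 of them positive and 3 negative, so that no direction was shared. Gna14 and Gna15 were dim, with means between 60.7 and 76.5 in both groups, and their standard errors were 0.425 and 0.506.

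The G12/13 class acts on the actin cytoskeleton. Gna12 had 896.2, 944.2 and 858.7 in Tg arrays, against 788.8, 637.8 and 770.1 in wt arrays. Every Tg array was above every wt array, with means of 899.7 ± 42.9 in Tg and 732 ± 82.3 in wt arrays (SD, n = 3 each). The log2 fold change of 0.30 (SE 0.128) had an unadjusted p of 0.0395 and an adjusted p of 0.489 by limma. Of its other probesets 2 were positive, at 0.30 and 0.11 with overlap, and a dim one was at -0.56. The difference was 0.20 without wt 2 and 0.04 with the mean of all kept probesets. Gna13 gave 2141.2, 2588.5 and 2243.7 in Tg and 2271.6, 2384.9 and 2537.3 in wt arrays, a difference of -0.05 that lay within the spread, and 4 of its 7 probesets were negative. Its second probeset was at -0.15 (SE 0.0919, limma adjusted p = 0.621) with all Tg arrays below wt, and the next was at 0.37 with overlap.

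**Figure D2:**
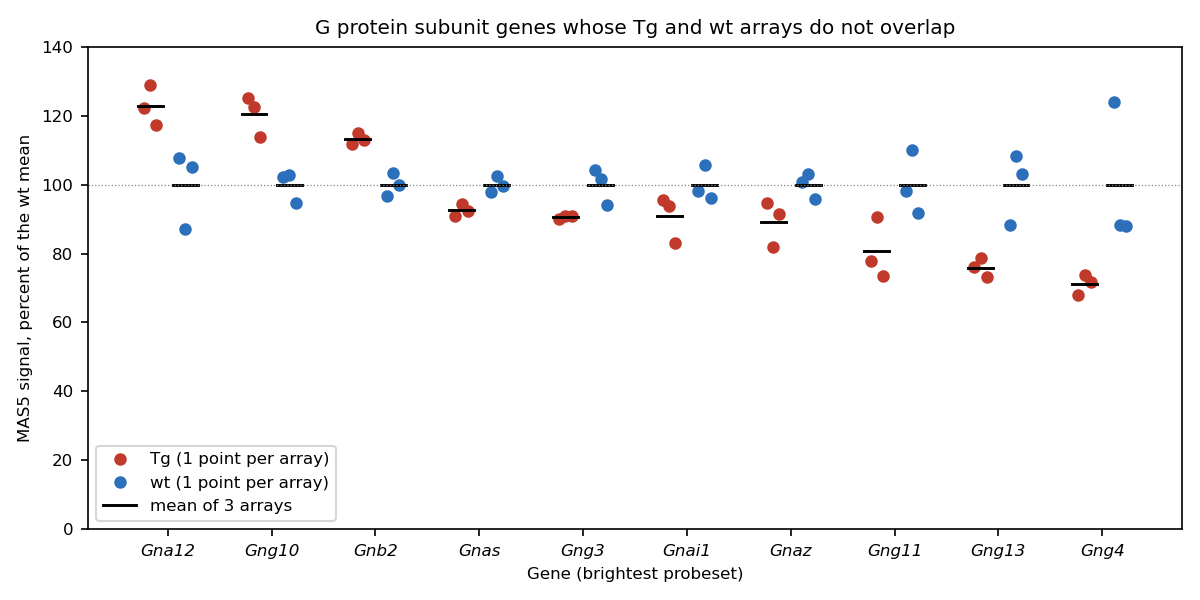
MAS5 signal of each array as a percentage of the wt mean for the genes whose Tg and wt arrays do not overlap at the brightest probeset. Each point is 1 array and each bar the mean of 3 arrays; Gna12, Gng10 and Gnb2 lie above 100 in Tg, and Gng4, with Tg arrays at 68.1, 73.8 and 71.9, lies lowest.

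Among the 5 beta subunits, Gnb2 was the one with a positive log2 fold change. Gnb2, a widely expressed subunit, had 5191.3, 5335.5 and 5247.8 in Tg arrays and 4489.2, 4795.6 and 4639.7 in wt arrays. Both groups were tight and did not overlap, with means of 5258 ± 72.7 in Tg and 4642 ± 153 in wt arrays (SD, n = 3 each). Its log2 fold change was 0.18 (SE 0.0756), with an unadjusted p of 0.0349 and an adjusted p of 0.474 by limma, and it was 0.18 as well without wt 1 and wt 2. It has 1 probeset, so no second reading was at hand.

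Gnb4, another partner of gamma subunits, had 278.5, 404.6 and 326.0 in Tg and 488.5, 345.5 and 411.3 in wt arrays, and Tg 2 exceeded wt 2. All 3 of its probesets were negative, from -0.29 to -0.12, the brightest with a standard error of 0.195 and an adjusted p of 0.655. That one was at -0.17 without Tg 1 or wt 1, and at -0.43 without Tg 2. Gnb5 differs from the other beta subunits in that it pairs with the R7 class of RGS proteins in place of a gamma subunit. It had 2941.0, 2738.4 and 2993.9 in Tg arrays and 3068.9, 2869.1 and 2932.2 in wt arrays, a difference of -0.03 (SE 0.0855). Gnb1 was at -0.15, had a second probeset at 0.21, and was at 0.16 without wt 1 and wt 2. Gnb3, the beta subunit of cone photoreceptors, had the lowest log2 fold change of the set, -0.76, but was dim, with at most 65.0 in Tg and 46.3 to 111.0 in wt arrays and a standard error of 0.537.

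Among the 8 measured gamma subunits, 3 were positive and 5 negative. An unadjusted p under 0.05 was found for 4 of them, where the background was 2.9% higher and 4.97% lower in Tg. The Tg arrays lay wholly above the wt arrays for 1 gene (background 5.21%) and wholly below them for 4 (background 8.82%). Gng4, a gamma subunit of brain, had 1187.3, 1287.5 and 1253.3 in Tg arrays, against 2160.5, 1537.9 and 1532.6 in wt arrays. The Tg arrays were close together and all below the wt arrays, of which wt 1 stood out as the highest. Means were 1243 ± 50.9 in Tg and 1744 ± 361 in wt arrays (SD, n = 3 each). The log2 fold change of -0.47 (SE 0.135), a signal 0.724 times that of wt, had an unadjusted p of 0.00488 and an adjusted p of 0.288 by limma. It was -0.30 without wt 1 and also -0.30 without wt 1 and wt 2. Of the other probesets of Gng4, 1 was at -0.04 (SE 0.202), negative as well but small. The dimmest went the other way. It had 179.4, 205.1 and 131.7 in Tg and 94.7, 120.5 and 35.8 in wt arrays, a log2 fold change of 1.01 (SE 0.385). The brightest is of the type that Affymetrix marks as able to read more than 1 transcript, and with the mean of the 3 probesets the gene was at 0.17. The brightest probesets of Gnai1, Gnas and Gna13 are of the same type, as are those of Rgs2 at -0.38 and Rgs5 at 0.43 below.

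Gng13, a gamma subunit known from taste, olfactory and retinal bipolar cells, had 1193.1, 1234.0 and 1150.5 in Tg arrays and 1386.8, 1703.0 and 1619.9 in wt arrays. No array of one group reached the other, and the Tg arrays spread less than the wt arrays, with means of 1193 ± 41.8 in Tg and 1569.9 ± 164 in wt arrays (SD, n = 3 each). The log2 fold change was -0.39 (SE 0.111), the smallest unadjusted p of the set was 0.00439, and the adjusted p was 0.274 by limma. Leaving out any 1 array gave -0.47 to -0.33, and leaving out wt 1 and wt 2 gave -0.44. Its second probeset was dim, between 28.7 and 89.0 on all arrays, and was at 0.38 (SE 0.465), and with the mean of both probesets the difference was gone (adjusted p = 0.998).

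Gng11, a gamma subunit found in many tissues outside the nervous system, had 949.6, 1102.1 and 896.7 in Tg arrays, against 1195.5, 1339.9 and 1118.3 in wt arrays. Tg 2 was close to wt 3, but the groups did not overlap. On the log2 scale the difference was -0.31 (SE 0.123) with an unadjusted p of 0.0283 and a limma adjusted p of 0.456, and it was -0.19 without wt 1 and wt 2. Markers of endothelial and mural cells were positive for 2 of 12 genes, with summed signals of 4196 to 6841 in Tg and 5032 to 9440 in wt arrays, and their part in this difference was not tested. Gng3, a gamma subunit of neurons, had 9813.8, 9913.0 and 9914.8 in Tg and 11380.7, 11078.5 and 10270.1 in wt arrays. Its Tg arrays were almost equal and all below wt 3, the lowest wt array. The difference was -0.14 on the log2 scale (SE 0.0717, adjusted p = 0.559), and -0.06 without wt 1 and wt 2.

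Gng10, a widely expressed gamma subunit, went the other way. It had 4859.9, 4752.2 and 4417.0 in Tg arrays and 3967.8, 3993.9 and 3680.1 in wt arrays, and the lowest Tg array was above the highest wt array. Means were 4676 ± 231 in Tg and 3881 ± 174 in wt arrays (SD, n = 3 each), with a log2 fold change of 0.27 (SE 0.0821), an unadjusted p of 0.00678 and an adjusted p of 0.31 by limma. It was 0.23 to 0.31 when any 1 array was left out and 0.34 without wt 1 and wt 2. Gng2, a gamma subunit common in brain, had 4558.9, 3845.3 and 4471.5 in Tg and 3697.4, 4005.4 and 4045.2 in wt arrays, overlapping at Tg 2 (0.13, SE 0.0912, adjusted p = 0.678).

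All 4 probesets of Gng2 were positive, from 0.13 to 0.41. The second had 1920.8, 2097.8 and 2003.1 in Tg arrays and 1668.5, 1535.4 and 1690.1 in wt arrays, and the dimmest had 853.2, 815.7 and 1018.7 in Tg and 631.1, 630.1 and 744.6 in wt arrays. Both were without overlap, at 0.30 (SE 0.0956, adjusted p = 0.338) and 0.41 (SE 0.136, adjusted p = 0.35), while the brightest, by which the gene is counted here, was the closest of the 4 to 0. Gng7, a gamma subunit of striatal Golf, and Gng12 were at 0.10 and -0.01.

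The promoters of the genes with the smallest unadjusted p in each direction are shown for sequence context, from 250 bases before to 50 bases after the RefSeq start on GRCm38.p6. Capitals mark GC boxes (GGGCGG, on either strand), the binding motif of Sp1-type factors. They are Gng10 (chr4:59034906-59035205, plus strand) and Gnb2 (chr5:137533257-137533556, minus strand), both higher in Tg, and Gng13 (chr17:25716922-25717221, plus strand) and Gng4 (chr13:13783809-13784108, plus strand), both lower, each at the most upstream start in the table.
Gng10: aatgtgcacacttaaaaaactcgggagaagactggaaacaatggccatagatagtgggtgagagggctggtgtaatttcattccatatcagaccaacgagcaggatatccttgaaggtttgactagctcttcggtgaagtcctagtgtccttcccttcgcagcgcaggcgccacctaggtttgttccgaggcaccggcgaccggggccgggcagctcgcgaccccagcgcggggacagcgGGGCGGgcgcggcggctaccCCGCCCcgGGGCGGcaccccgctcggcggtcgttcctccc
Gnb2: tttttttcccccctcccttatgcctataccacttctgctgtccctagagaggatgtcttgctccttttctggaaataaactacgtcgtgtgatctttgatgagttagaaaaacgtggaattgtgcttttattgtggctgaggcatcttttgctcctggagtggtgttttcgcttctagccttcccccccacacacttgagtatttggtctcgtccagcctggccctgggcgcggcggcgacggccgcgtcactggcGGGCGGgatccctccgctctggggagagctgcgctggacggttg
Gng13: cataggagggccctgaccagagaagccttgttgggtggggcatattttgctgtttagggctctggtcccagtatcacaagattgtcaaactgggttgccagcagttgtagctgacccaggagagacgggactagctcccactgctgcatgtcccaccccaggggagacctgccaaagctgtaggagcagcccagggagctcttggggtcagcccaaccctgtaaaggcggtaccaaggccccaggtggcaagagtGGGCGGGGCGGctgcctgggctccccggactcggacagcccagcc
Gng4: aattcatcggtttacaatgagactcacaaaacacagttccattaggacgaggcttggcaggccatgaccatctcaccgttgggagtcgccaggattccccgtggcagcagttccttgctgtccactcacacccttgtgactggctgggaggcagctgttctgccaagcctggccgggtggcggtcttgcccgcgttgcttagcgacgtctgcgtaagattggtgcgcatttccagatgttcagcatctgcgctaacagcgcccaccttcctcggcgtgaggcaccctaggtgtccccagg

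Gng10 held 3 GC boxes, Gnb2 1, Gng13 2 that overlap, and Gng4 none. RefSeq promoters were at hand for 36 of the 48 genes, in 49 windows of which some overlap, and 25 of these windows (51%) held a GC box, compared with 35.7% of all 32851 windows of the same length. The cyclic AMP response element TGACGTCA, which reads the same on both strands, was in 0 of the 49 windows and in 1.79% of all windows. At that share few would be expected among 49, and nothing is read from this 0. A TATA box (TATAAA, on either strand) was in 14.3% of the 49 and 13.6% of all. Counted by gene, 21 of the 36 had a window with a GC box and 4 had one with a TATA box. A match is a description of the letters and not of binding.

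**Figure D3:**
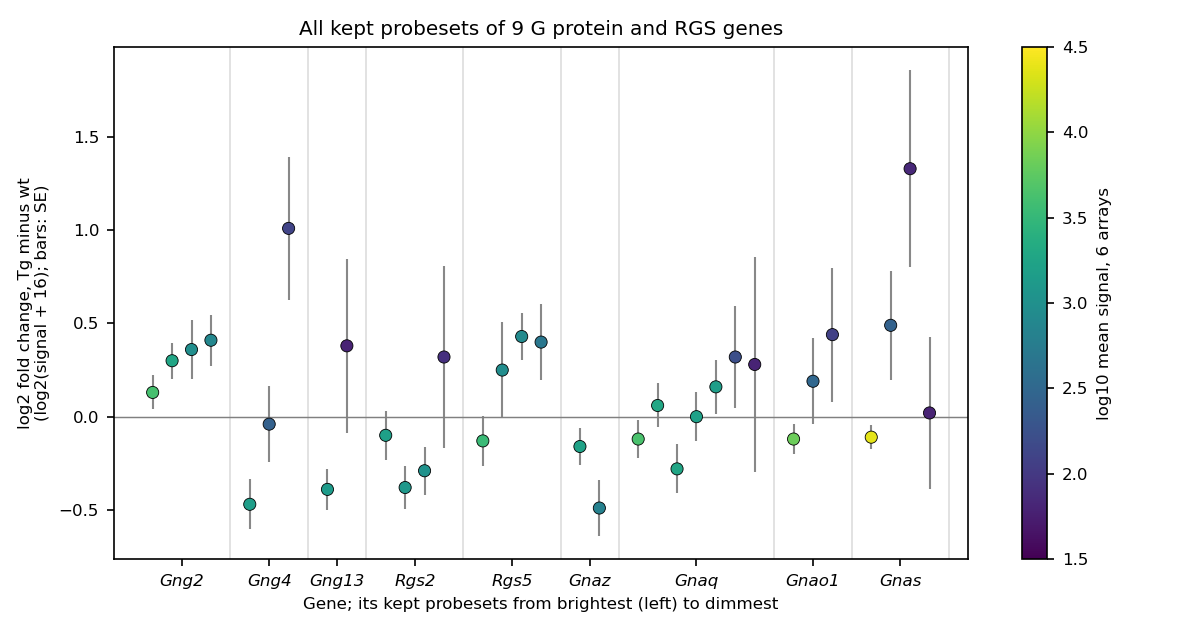
Log2 fold change, Tg minus wt, with its standard error for every kept probeset of 9 genes, from the brightest on the left to the dimmest on the right. Colour gives the log10 mean signal of 6 arrays; the 4 probesets of Gng2 are all above 0, whereas those of Gng4 span -0.47 to 1.01 and those of Gnaq -0.28 to 0.32.

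Of the 14 measured RGS genes, counted with the anchor Rgs7bp, 6 were positive and 8 negative, with a median of -0.055 (limma, smallest adjusted p 0.594). None had groups without overlap at the brightest probeset, and none had an unadjusted p under 0.05. The backgrounds were 5.21% and 8.82% for arrays without overlap, and 2.9% and 4.97% for the unadjusted p. At these shares a few of 14 genes would be expected at most, and nothing is read from these counts of 0. The R4 class acts on Gi and Gq alpha subunits. Rgs4, abundant in forebrain neurons, had 2061.8, 2363.4 and 2447.4 in Tg and 1949.3, 3291.0 and 2593.6 in wt arrays. The wt arrays held both the lowest and the highest value, and the log2 fold change of -0.16 (SE 0.157) was 0.02 without wt 2. Rgs5, which in brain marks pericytes, had 2927.4, 2893.8 and 3885.3 in Tg and 2932.1, 3902.1 and 3764.7 in wt arrays (-0.13, SE 0.135). The other 3 probesets of Rgs5 were positive, and one of them had 877.4, 926.8 and 1068.2 in Tg and 727.6, 659.6 and 720.0 in wt arrays without overlap (0.43, SE 0.126, adjusted p = 0.284). Thus the direction for Rgs5 depended on the probeset.

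Rgs2, a regulator of Gq that is induced by neuronal activity, was measured at 1359.4, 1715.3 and 1383.5 in Tg arrays and at 1404.7, 1865.8 and 1525.1 in wt arrays. Tg 2 and wt 2 were the highest of their groups, and the difference of -0.10 (SE 0.132, adjusted p = 0.835) was within the spread. At its second probeset the signals were 1125.4, 1065.0 and 1093.6 in Tg, against 1606.8, 1415.8 and 1291.3 in wt arrays, and at the next they were 904.2, 957.1 and 908.3 in Tg, against 1349.1, 1060.2 and 1018.9 in wt arrays. Both of these were free of overlap, with tight Tg arrays and wt 1 the highest, and gave log2 fold changes of -0.38 (SE 0.113, adjusted p = 0.29) and -0.29 (SE 0.129, adjusted p = 0.494). The last, dim probeset was at 0.32. The remaining R4 genes were Rgs3 at -0.19, Rgs8 at 0.11 and the dim Rgs16 at 0.38 (SE 0.436).

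The R7 class pair with Gnb5 and act on Go and Gi. At the brightest probeset its 3 kept genes, the anchor Rgs7bp among them, lay between -0.01 and 0.14. Rgs7 had 2341.9, 2223.4 and 2468.7 in Tg and 2640.3, 2239.5 and 2129.5 in wt arrays, and its anchor Rgs7bp had 5823.0, 5393.6 and 5728.7 in Tg and 5529.7, 5303.9 and 6234.1 in wt arrays. Their log2 fold changes were 0.01 (SE 0.103) and -0.01 (SE 0.0849), near the -0.03 of Gnb5, and Rgs11 was at 0.14 (SE 0.152). The other kept probesets of Rgs7bp were at 0.26 (SE 0.137, limma adjusted p = 0.579) and -0.13 (SE 0.11), so its direction depended on the probeset. The 3 differences at the brightest probesets lay within the spread between arrays. Differences of about the size of these standard errors could not have been seen.

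In the R12 class Rgs10, expressed in microglia and neurons, had 1295.8, 1233.2 and 1210.7 in Tg and 1465.3, 1492.6 and 1221.5 in wt arrays, and wt 3 lay among the Tg arrays (-0.15, SE 0.112, adjusted p = 0.689). Without wt 1 and wt 2 the sign turned, to 0.03. Microglial markers were positive for 4 of 9 genes, with summed signals of 13043 to 13471 in Tg and 13909 to 15076 in wt arrays, and their part in this difference was not tested. Rgs12, a large member with several other domains, had 495.6, 492.0 and 816.4 in Tg and 540.3, 489.5 and 520.5 in wt arrays. Its log2 fold change of 0.17 rested on Tg 3, and was -0.06 without that array.

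The RZ class acts on Gz alpha among others. Rgs20 had 1051.3, 781.4 and 717.0 in Tg arrays and 953.2, 1015.4 and 1070.1 in wt arrays, so that Tg 1 overlapped the wt arrays and the other Tg arrays lay below them. Its log2 fold change of -0.27 (SE 0.147, adjusted p = 0.594) was the lowest of the RGS genes, and it was -0.43 without Tg 1 and -0.16 without Tg 3. Rgs17 had 786.1, 1257.3 and 1193.9 in Tg and 1032.4, 1354.5 and 1172.1 in wt arrays (-0.16, SE 0.172, adjusted p = 0.802), with Tg 1 the lowest of all, and its second probeset was at -0.16 too. Rgs19 was at 0.02 (SE 0.128).

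**Figure D4:**
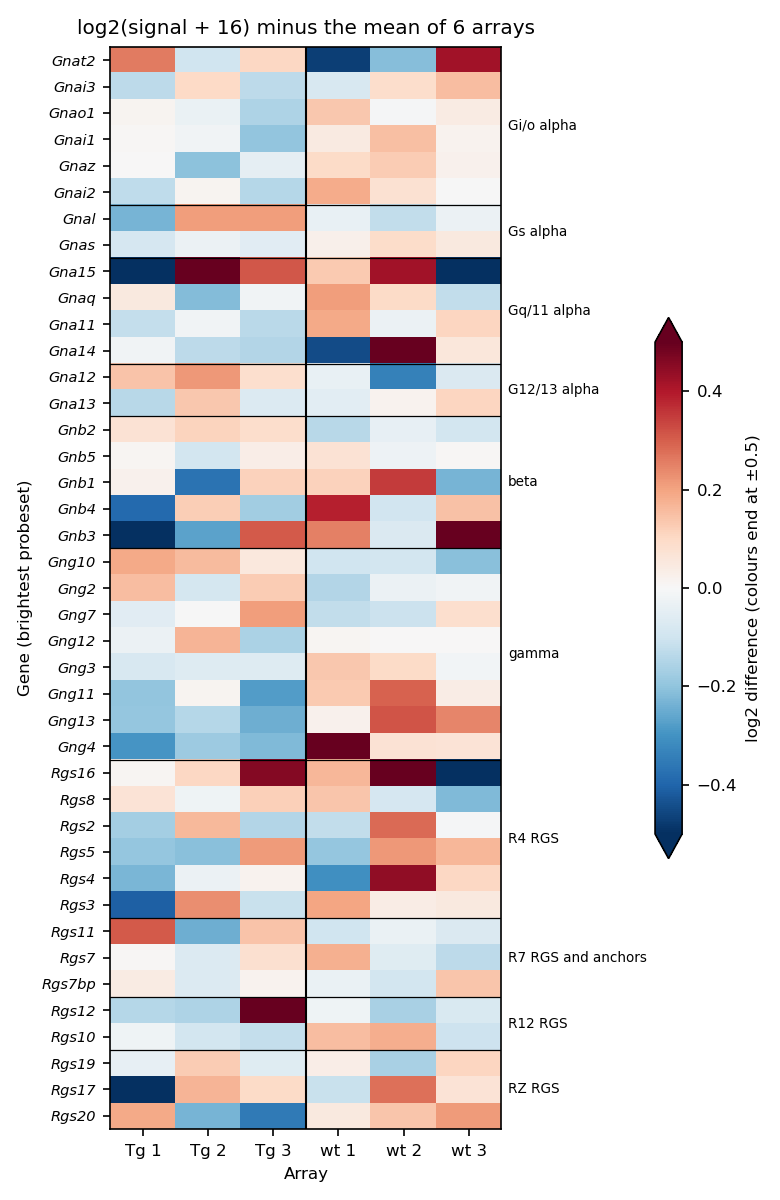
Log2(signal + 16) of each array minus the mean of the 6 arrays for the 41 genes (rows, by role) and the Tg and wt arrays (columns). Colours end at ±0.5; Gng4, Gng13 and Gng3 are below the mean in all Tg arrays, Gng10, Gnb2 and Gna12 are above it, and the dim genes Gna15, Gna14, Gnb3 and Rgs16 vary from array to array within both groups.

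Below the filter were 7 of the 48 genes: Gnat1, the alpha subunit of rod transducin, Gng8, Rgs1, Rgs13, Rgs18, Rgs6 and Rgs9bp. None of their signals exceeded 83.6 on any array, and they were not tested. Rgs9bp had 52.5, 14.6 and 41.7 in Tg and 3.1, 9.8 and 3.6 in wt arrays, close to the floor of the array. Among the 41 kept genes, 29 had a second kept probeset, and of their 58 other kept probesets 28 went in the direction of the brightest one. In 9 genes all probesets shared a direction: Gng2 and Rgs19 were positive throughout, and Gna11, Gna14, Gnai2, Gnai3, Gnaz, Gnb4 and Rgs17 negative.

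The partners of these proteins were counted in the same fit and none was called. Of 18 measured direct effectors 8 were positive. Adcy1, the calcium-stimulated adenylyl cyclase of hippocampal neurons, had 10033.6, 9184.3 and 11049.6 in Tg and 8933.2, 6811.6 and 9127.8 in wt arrays, the lowest Tg array being just above the highest wt array (0.29, SE 0.113, adjusted p = 0.44). Adcy8, the other calcium-stimulated cyclase of these neurons, had 258.0, 288.8 and 261.8 in Tg and 330.5, 435.8 and 334.1 in wt arrays, again without overlap but in the opposite direction (-0.41, SE 0.184, adjusted p = 0.5). These were the only effectors with an unadjusted p under 0.05, 1 higher and 1 lower in Tg. Free of overlap were 1 effector above wt (background 5.21%) and 2 below (background 8.82%). Of 12 chaperones, exchange factors and inhibitors of GDP release 8 were positive, and 1 had an unadjusted p under 0.05: Pdcl3, a phosducin-like protein, with 929.0, 802.9 and 804.3 in Tg, against 1043.4, 971.8 and 1020.2 in wt arrays (-0.26, SE 0.117, adjusted p = 0.513). The receptor kinases and arrestins were positive for 1 of 5 genes, and the other proteins with an RGS domain for 5 of 7, with no unadjusted p under 0.05 in either list. Free of overlap were 1 gene above and 1 below wt among the 12 chaperones, exchange factors and inhibitors. The counts were the same among the 7 other proteins with an RGS domain, and 0 among the receptor kinases and arrestins (backgrounds 5.21% above and 8.82% below). Over all genes the share at an unadjusted p under 0.05 was 2.9% higher and 4.97% lower in Tg. In lists this short nothing is read from these counts.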

How the data were processed

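Hippocampal RNA of 3 Tg and 3 wt mice was read on 1 array per mouse. The deposited values are linear intensities: the authors computed 1 MAS5 signal per probeset and array, scaled to a common trimmed mean. The study's RMA values from scanner images were not analysed here, nor were detection calls. Besides 64 control probesets, the dimmest 31% by mean log2(signal + 16) were removed. The 31075 kept probesets had mean signals of 48.8 or more. The added constant shrinks differences of dim probesets. Groups were compared on log2(signal + 16) with limma 3.58.1 in R 4.3.3 (intensity trend), with Benjamini-Hochberg adjustment over the 31075 probesets, and called at an adjusted p under 0.05. The script was tested on simulated data. Cyber-T used a window of 101 and a confidence of 10. Genes were named by the platform annotation, and a gene of the comparison over all genes was its brightest single-gene probeset. Genes described array by array had an unadjusted p under 0.05 or no overlap, are named by the paper, or were the 2 brightest of their role class. Values of other probesets, dim genes and genes below the filter were picked once seen. The genes, lists and tests were chosen with earlier results of these data known. The alternatives tried were added constants of 1 and 64, median centring, quantile normalization, the filter dropped or raised to 50% of probesets, the intensity trend dropped, array weights, Cyber-T, a block for the replicate number, the mean over a gene's probesets, and each array left out. Leaving out wt 1 and wt 2 together was added after seeing the data. The precision is limited by the number of arrays. Figures were drawn with matplotlib 3.10.9.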

Additional observations from a re-analysis of the deposited data

How the results depend on the processing

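The count of called genes was 0 under each alternative run for it, which leaves out the fit without both wt 1 and wt 2, so adjusted p values say nothing of stability here. The count at an unadjusted p under 0.05, 6 of 41, was 2 without the intensity trend, 11 with median centring, 3 without both wt 1 and wt 2, and 3 to 6 with 1 array left out, lowest without Tg 3. Genes with all Tg arrays above wt, 3, became 7 without wt 1 and wt 2 and 3 to 5 with 1 array left out (5 without Tg 2 or wt 3). Genes with all Tg arrays below wt, 7, became 11 with median centring, 4 with quantile normalization, 17 without wt 1 and wt 2, and 9 to 15 with 1 array left out, highest without Tg 2. Fewer arrays make such gaps easier by construction. The shares over all genes are not given for these alternatives, so a changed count is not read as a change in these genes. The 14 positive genes became 22 with the mean of a gene's probesets, and 12 to 17 with 1 array left out. The median of -0.112 was -0.101 with array weights, 0.022 with the mean of probesets, -0.178 with median centring, -0.097 without the filter, -0.087 with quantile normalization and also without wt 1 and wt 2, and -0.13 to -0.045 with 1 array left out. Its sign thus depended on the probesets used. The baseline moved as well. Over all kept probesets the median was 0.02 in the main fit, -0.047 with median centring and -0.005 with quantile normalization. Without wt 1 and wt 2 the sign turned for Gnaq (0.06), Gnb1 (0.16), Rgs10 (0.03), Gng7 (-0.03), Rgs19 (-0.10) and Gnat2 (-0.33).

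For the 27 genes given array by array, 437 of 459 other alternatives kept the sign, and 22, in 13 genes, turned it; the cause was not tested. With the mean of probesets Gna13 was at 0.06, Gnao1 0.17, Gnaq 0.06, Gnas 0.43, Gng4 0.17, Rgs12 -0.21, Rgs5 0.24 and Rgs7bp 0.04. Quantile normalization gave Gnb5 0.00 and Rgs7bp 0.02, and median centring gave Rgs7 -0.06. With 1 array left out Gna13 ranged from -0.13 to 0.01, Gnb5 from -0.06 to 0.01, Rgs12 from -0.06 to 0.29, Rgs17 from -0.28 to 0.05, Rgs2 from -0.21 to 0.01, Rgs4 from -0.35 to 0.02, Rgs7 from -0.05 to 0.10 and Rgs7bp from -0.06 to 0.06. Without a turn of sign, Gnai1 ranged from -0.18 to -0.08, Gnao1 from -0.15 to -0.07, Gnaq from -0.21 to -0.04, Gnaz from -0.21 to -0.10, Gng2 from 0.08 to 0.21, Rgs10 from -0.24 to -0.10 and Rgs5 from -0.27 to -0.05. The arrays behind the turns were Tg 1 (Gna13, Rgs17), Tg 2 (Gnb5, Rgs7bp), Tg 3 (Rgs12, Rgs7), wt 2 (Rgs2, Rgs4, Rgs7) and wt 3 (Rgs7, Rgs7bp). In the labels, arrays of Tg and wt share only a number (correlations of -0.016, 0.00781 and 0.0334 for arrays of 1 number). Which of the littermates came from the same litter is not given, and these correlations cannot show it. With the number as a block 4 genes had an unadjusted limma p under 0.05, 0 were called, and the median was -0.112.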
